A study of Homo sapiens with 38 samples.

Results

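The effect of silencing ORMDL3 on the transcriptome was examined at 8 h of interleukin 1 beta (IL1B) in A549 cells, an established line from a human lung adenocarcinoma that keeps features of alveolar epithelial cells. The comparison set the 4 arrays labelled as ORMDL3 knockdown at 8 h against the 3 arrays labelled as control at 8 h, which are 7 of the 38 arrays of the series, and it ran across all 14488 probe sets. Knockdown cells had received a pool of siRNAs against ORMDL3 (ON-TARGETplus SMARTpool) and were left for 48 h, so that 1 pool in 1 tumour line stands for the knockdown. The labels describe the other arm with the word control alone, so whether a control siRNA was used is not known here. Both arms were A549 cells of passages 90 to 110 starved of serum for 24 h before 8 h of IL1B at 1 ng/ml. The other arrays of both arms, taken at 0, 2, 4 and 10 h (4 per arm and hour, except 3 for knockdown at 0 h), were used to ask whether a difference was particular to 8 h. Nothing in the labels says whether replicates came from separate cultures. A p-value of the fit therefore sets a difference against the spread of arrays within their groups, pooled over the 38 arrays, and that spread may be technical. In RNA from whole wells, fewer cells that express a gene and less of its RNA per cell cannot be told apart.

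ORMDL3 sits in the endoplasmic reticulum membrane, where ORMDL proteins hold back serine palmitoyltransferase, the first enzyme of sphingolipid synthesis, and its gene lies in a region of chromosome 17 associated with childhood asthma. IL1B binds its receptor on epithelial cells and acts through IRAK kinases and NF-kB to induce chemokines, adhesion molecules and feedback inhibitors. Genes of the interferon programme, many of them antiviral effectors, follow in such cells through autocrine interferon and through interferon regulatory factors.

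Values were log2 expression levels, so that a log2 difference of 1 is a doubling, and differences are given as knockdown minus control with the standard error of the fit. A probe set was called when its adjusted p from limma, fitted to all 38 arrays and adjusted over all 14488 probe sets, was below 0.05. Array medians lay between 8.02 and 8.19 over the series, and knockdown replicate 3 at 8 h had the lowest. The mean level of 117 small nucleolar RNA probe sets was 7.80, 7.54, 7.14 and 7.30 in the knockdown arrays at 8 h and 7.65, 7.49 and 7.63 in the control arrays at 8 h. Epithelial keratins were high in both arms, with KRT8 at 12.92 in knockdown and 12.95 in control cells and KRT18 at 12.38 in knockdown and 12.41 in control cells. All 10 measured lung epithelial markers lay above the lower quartile of at least 1 array. Of 6 measured leukocyte markers 2 (CD79A and SPI1), and of 5 measured fibroblast and endothelial markers 2 (THY1 and ENG), lay below the lower quartile in all 7 arrays. The mean over the leukocyte markers was 7.21 in knockdown and 7.18 in control cells, and 1 of the 6, the integrin chain ITGAX, was called (6.81 in knockdown and 6.38 in control cells).

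ORMDL3 itself stood at 5.39, 5.29, 5.57 and 5.47 in the knockdown arrays, against 7.64, 7.58 and 7.42 in the control arrays. All 4 knockdown arrays lay far below all control arrays. The difference was -2.12 ± 0.12 (adjusted p = 1.97e-14), which leaves 23% of the control level on the linear scale of the array, and a two-sided exact permutation test over the 7 arrays gave p = 0.029, the smallest value that its 35 splits allow. Its paralogues were not called. ORMDL1 averaged 8.30 ± 0.14 in knockdown and 8.56 ± 0.13 in control cells (SD, n = 4 and 3), a difference of -0.26 ± 0.10 (adjusted p = 0.168). ORMDL2 averaged 11.52 ± 0.09 in knockdown and 11.63 ± 0.08 in control cells, a difference of -0.11 ± 0.07 (adjusted p = 0.46).

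Across the transcriptome at 8 h, 417 probe sets were called (2.88% of those tested), 234 higher (1.62%) and 183 lower (1.26%) in knockdown cells. Most changes were small: the median size of a called difference was 0.416 on the log2 scale, against 0.101 over all probe sets. More than 1.5-fold changes were found for 43 higher and 43 lower probe sets, and more than 2-fold changes for 9 probe sets, all lower. The arrays of the groups did not overlap for 402 of the 417, against 14.5% of all probe sets. Which direction held more calls depended on the arrays and the scaling. The split was 352 higher and 150 lower with array medians subtracted and 297 higher and 159 lower with quantile normalization. It was 150 higher and 192 lower without knockdown replicate 2, 78 higher and 92 lower without knockdown replicate 4, 153 higher and 170 lower without all arrays numbered 4, and 94 in each direction without control replicate 1. The count without 1 array was 170 without knockdown replicate 4, 188 without control replicate 1, 234 without control replicate 2, 177 without control replicate 3 and between 310 and 342 without any other knockdown array, and 46 were called in a fit of the 7 arrays alone.

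**Figure D1:**
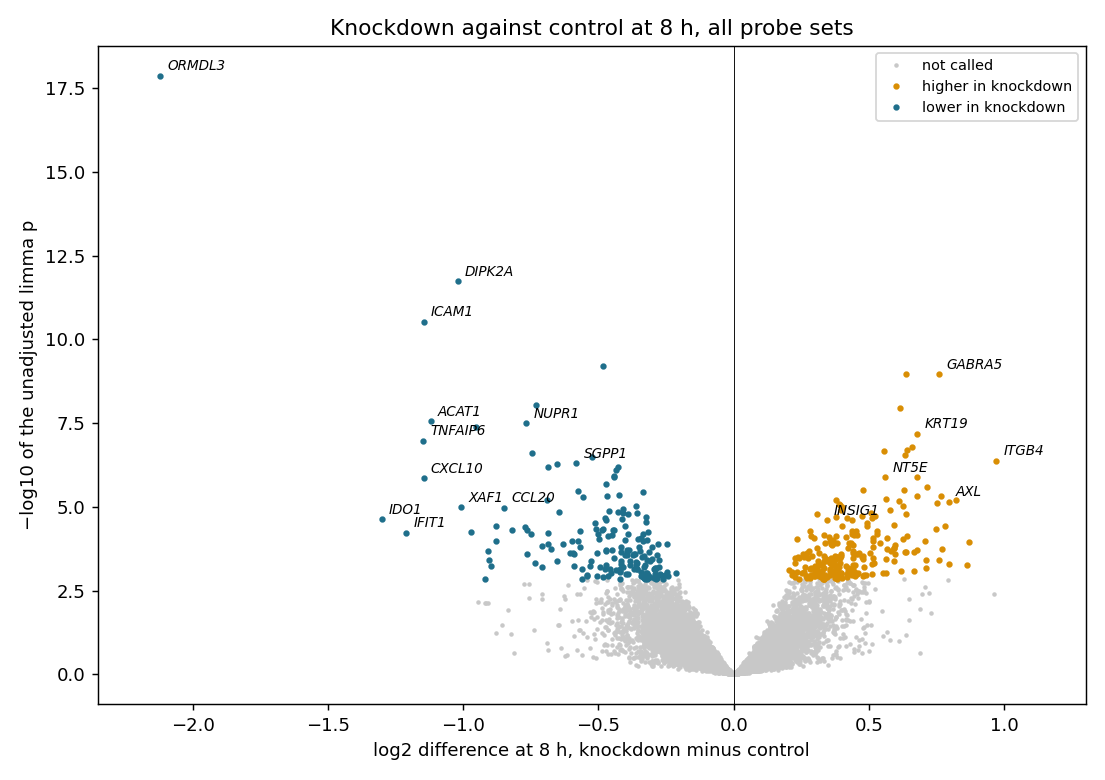
Each point is 1 of the 14488 probe sets, with the log2 difference at 8 h (knockdown minus control) on the x axis and -log10 of the unadjusted limma p on the y axis, and colours mark the 234 called higher and the 183 called lower. ORMDL3 stands alone at -2.12, the other lower genes reach to -1.30 and the higher genes to 0.97.

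Among genes induced by IL1B, several adhesion, matrix and chemokine genes were lower in knockdown cells. ICAM1, the endothelial and epithelial ligand of leukocyte integrins, was at 10.72, 10.62, 10.47 and 10.22 in knockdown cells, against 11.59, 11.76 and 11.60 in control cells. The highest knockdown array lay 0.87 below the lowest control array, a difference of -1.15 ± 0.12 (adjusted p = 1.45e-07). TNFAIP6, a secreted hyaluronan-binding protein, was at 8.69, 8.36, 8.5 and 8.30 in knockdown cells, against 9.49, 9.84 and 9.5 in control cells. The groups were again well apart, with a difference of -1.15 ± 0.17 (adjusted p = 0.00012). CXCL10, a chemokine for activated T cells that interferons and NF-kB induce, was at 6.80, 6.59, 6.24 and 6.27 in knockdown cells, against 7.62, 7.77 and 7.47 in control cells. Knockdown replicates 3 and 4 were the lowest, and the difference was -1.15 ± 0.19 (adjusted p = 0.000667). CCL20, a chemokine for dendritic cells and Th17 cells, was at 10.34, 9.89, 9.85 and 9.78 in knockdown cells, against 10.71, 10.97 and 10.76 in control cells. Knockdown replicate 1 came nearest to the controls, and the difference was -0.85 ± 0.16 (adjusted p = 0.00282). These 4 calls held without any 1 array and in the fit of the 7 arrays alone.

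**Figure D2:**
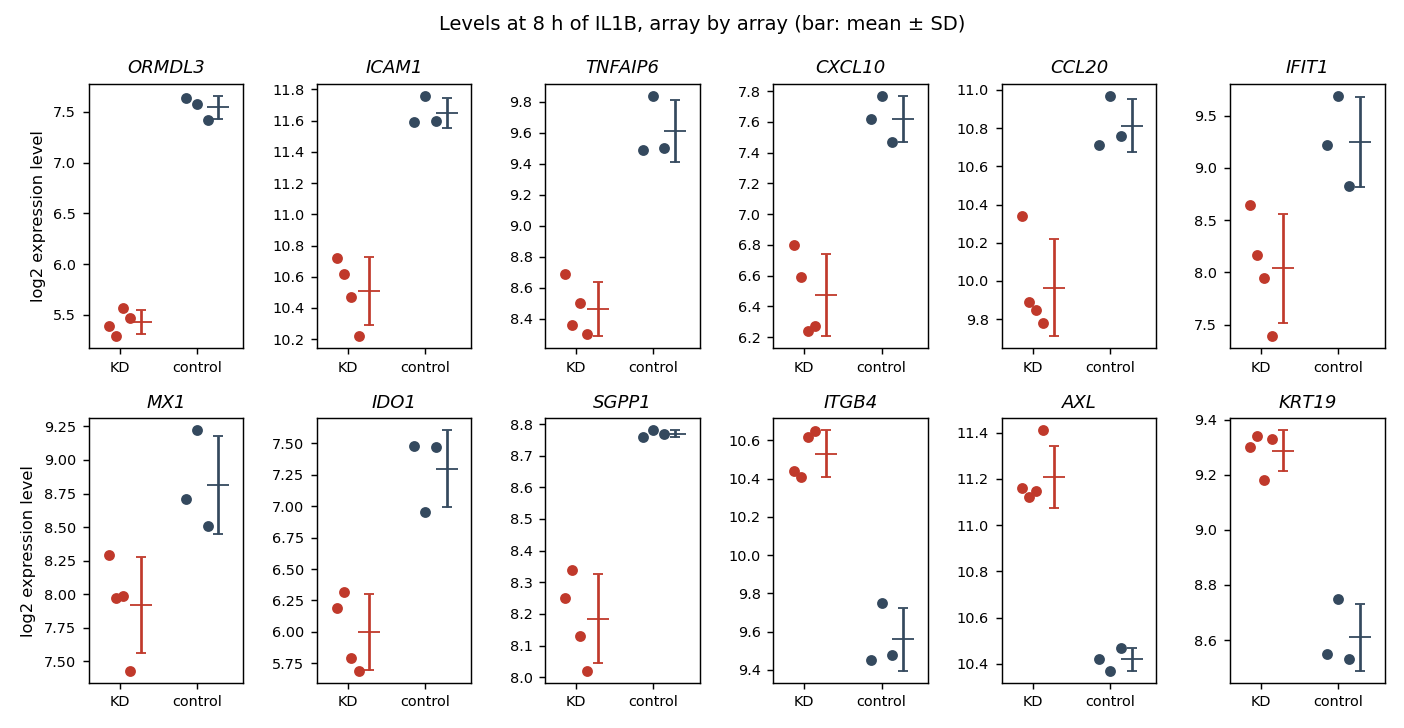
Each panel shows the log2 level of 1 of 12 genes in the 4 knockdown arrays (KD, left) and the 3 control arrays (right) at 8 h, 1 point an array, with the mean and SD beside them, and each y axis has its own range. The groups do not overlap in any of the 12 genes, and ORMDL3 has the widest gap.

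The listed groups of the wider IL1B programme held few further calls, to be read beside the 1.26% of all probe sets called lower. Of 17 measured cytokines and growth factors, IL1B itself (-0.71 ± 0.16, adjusted p = 0.0138) and IL23A, a subunit of interleukin 23 (-0.65 ± 0.17, adjusted p = 0.0249), were lower and none was higher. IL1B lost its call without control replicate 1, control replicate 2 or knockdown replicate 3 (adjusted p = 0.0653, 0.0804 and 0.0599), and IL23A without control replicates 2 or 3 or knockdown replicates 3 or 4 (0.066, 0.175, 0.11 and 0.0651). Of 15 genes of the IL1 receptor and its proximal signalling, IRAK2, a kinase-like adaptor of the receptor complex, was lower (-0.36 ± 0.07, adjusted p = 0.00257), as was IRAK3, an inhibitory member of that family (-0.73 ± 0.19, adjusted p = 0.0272). IRAK3 lost its call without any array but knockdown replicate 3, with adjusted p-values up to 0.103, whereas IRAK2 kept its call without each. OLR1, a scavenger receptor for oxidised lipoprotein, was lower by the fit too (-0.77 ± 0.19, adjusted p = 0.0187), and with TNFAIP6 made up the 2 calls among 15 airway defence and acute-phase genes, whose median was -0.35. Its adjusted p was 0.0838, 0.0779, 0.0532 and 0.0792 without control replicates 1 and 2 and knockdown replicates 3 and 4. BDKRB1, the inducible bradykinin receptor, was lower in knockdown cells (-0.92 ± 0.26, adjusted p = 0.0488), a call that held only when knockdown replicate 2 was the array left out, with adjusted p = 0.186 without knockdown replicate 4. The groups do not hold every gene that rose with IL1B. GCH1 (-0.75), MCTP1 (-0.56), STK17A (-0.33) and SLC39A8 (-0.32) were called lower outside them. These genes gained 1.45, 1.44, 1.49 and 1.88 from 0 to 8 h in control cells. IL18R1 was called lower too (-0.69, adjusted p = 0.00206). Induced genes outside the groups were not counted in either direction.

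Many of the strongest IL1B targets gave no call. Of 6 listed neutrophil-attracting CXC chemokines, 5 were measured by a probe set with 1 symbol. None of these 5 was called by limma (2 at an unadjusted p below 0.05, which 15.8% of all probe sets had). Probe sets with several symbols or none were in no gene group, and 383 of the 417 calls had 1 symbol. A listed gene without a probe set of 1 symbol was therefore not counted. CXCL8 averaged 12.28 ± 0.28 in knockdown and 12.45 ± 0.21 in control cells (adjusted p = 0.496). The T-cell chemokine CCL5 averaged 11.38 ± 0.12 in knockdown and 11.21 ± 0.08 in control cells (adjusted p = 0.653). IL6 averaged 9.44 ± 0.19 in knockdown and 9.70 ± 0.17 in control cells (adjusted p = 0.337). The groups overlapped for CXCL8, CCL5 and IL6. No gene was called among 14 NF-kB subunits and inhibitors (median -0.08) or 14 feedback regulators of NF-kB (median -0.11), with 3 and 4 at an unadjusted limma p below 0.05. The count of 0 for the feedback regulators depended on the fit. ZC3H12C (-0.36, adjusted p = 0.0512) was called lower with array weights and without knockdown replicate 2 or 4, among other fits. N4BP1 was called lower with array weights and without all arrays numbered 4. The 8 h difference was called lower than that at 0 h for 2 subunits or inhibitors and 3 feedback regulators. Most of those genes were called higher at 0 h. NFKBIA, the inhibitor that NF-kB induces against itself, differed by -0.09 ± 0.07 and SOD2, the mitochondrial superoxide dismutase, by -0.06 ± 0.06. Apart from ICAM1, none of 9 adhesion molecules was called. VCAM1 differed by -0.33 ± 0.14 and SELE by -0.43 ± 0.16.

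The antiviral effectors of the interferon programme were the group with the most calls. Of 44 measured effectors 15 were lower and none was higher, a share to be read beside the 1.26% of all probe sets called lower. The median difference of the group was -0.39, against -0.025 over all probe sets, and 41 of the 44 differences were negative. All knockdown arrays lay below all control arrays for 29 of them, against 8.39% of all probe sets. These values describe the list, which was drawn up with earlier results of these data known. IFIT1, which binds viral RNA that lacks the host cap, was at 8.64, 8.17, 7.95 and 7.39 in knockdown cells, against 9.22, 9.69 and 8.83 in control cells. Knockdown replicate 4 was the lowest and control replicate 2 the highest, and the difference was -1.21 ± 0.26 (adjusted p = 0.00825). XAF1, a pro-apoptotic interferon-induced protein, was at 6.60, 6.00, 6.12 and 5.98 in knockdown cells, against 6.93, 7.66 and 6.97 in control cells. Its difference of -1.01 ± 0.19 (adjusted p = 0.00276) kept its call without any 1 array. MX1, a dynamin-like GTPase that blocks influenza virus, was at 8.29, 7.97, 7.99 and 7.43 in knockdown cells, against 8.71, 9.22 and 8.51 in control cells. The groups were separated by a narrow gap, with a difference of -0.90 ± 0.23 (adjusted p = 0.0299).

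Other effectors were called as well. IFIT2 (-0.77 ± 0.16) and IFIT3 (-0.82 ± 0.17), partners of IFIT1, were lower with adjusted p-values of 0.00671 and 0.00744. OAS2, which makes the oligoadenylate that activates RNase L, was lower by the fit (-0.91 ± 0.22, adjusted p = 0.0169), as were its relative OASL (-0.69 ± 0.16, adjusted p = 0.0125) and MX2 (-0.88 ± 0.20, adjusted p = 0.0111). TRIM22, an antiviral ubiquitin ligase, differed by -0.97 ± 0.21 (adjusted p = 0.00782) and IFI44L by -0.90 ± 0.23 (adjusted p = 0.0236). OAS1 was high in both arms, at 11.06 ± 0.24 in knockdown and 11.36 ± 0.12 in control cells, and was not called (adjusted p = 0.447). ISG15, a ubiquitin-like modifier, averaged 5.93 ± 0.16 in knockdown and 5.87 ± 0.08 in control cells and was not called (adjusted p = 0.804). Many effectors were dim. ISG15 and IFI44L lay below the lower quartile in all 7 arrays, and IFIT2 and MX2 in all but control replicate 2. In a fit without probe sets whose mean level lay below the median of 8.12, 3 effectors were called lower. The effectors were spread unevenly over the arrays. Their mean level was 8.11, 8.00, 7.87 and 7.75 in the knockdown arrays, against 8.32, 8.56 and 8.28 in the control arrays. Control replicate 2 was the highest control array for 34 of the 44, and knockdown replicate 4 the lowest knockdown array for 22. Leaving out control replicate 2 left 2 effectors called lower and leaving out knockdown replicate 4 left 4, whereas 12 were called without knockdown replicate 3, 10 without control replicate 1 and between 14 and 16 without any other array. In the limma fit of the 7 arrays alone none was called, with 31 at an unadjusted p below 0.05, and 20 probe sets were called lower in all.

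**Figure D3:**
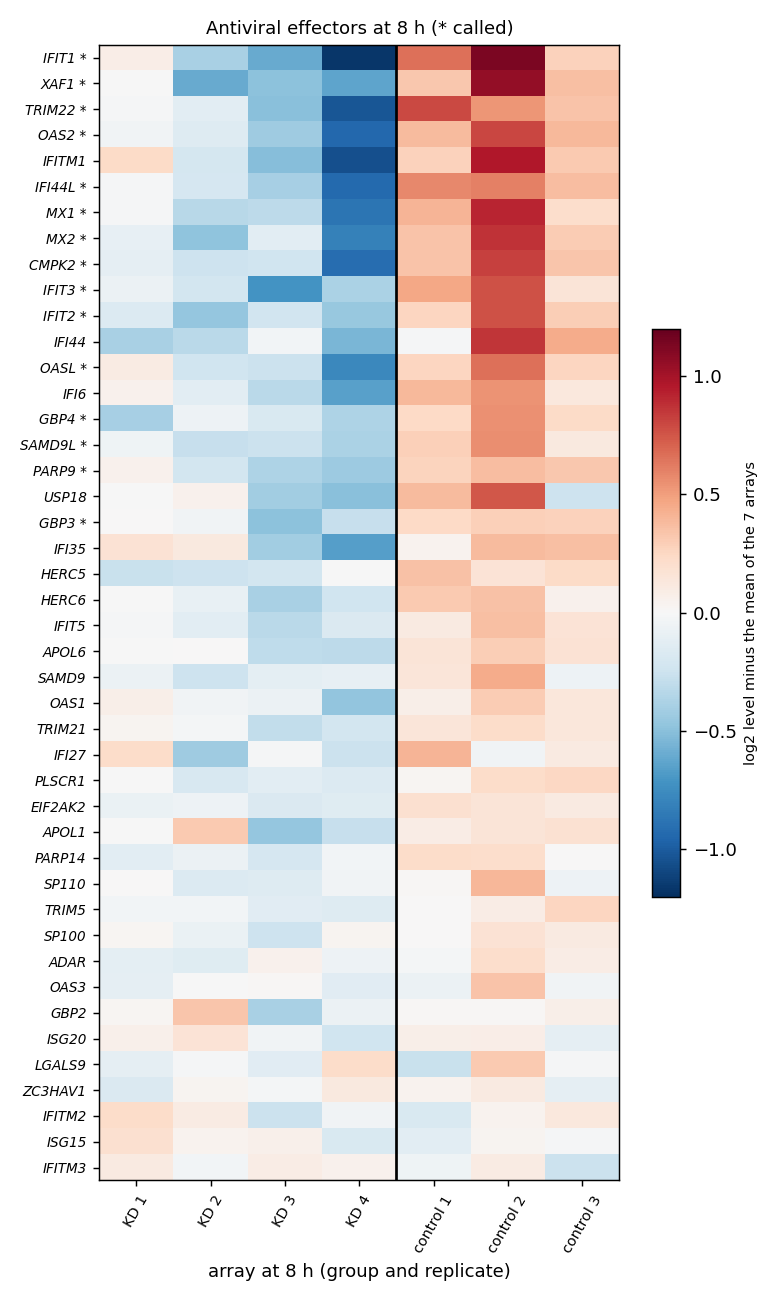
The heat map shows the 44 measured antiviral effectors (rows, ordered by difference, called ones starred) in the 4 knockdown arrays (KD, left of the line) and the 3 control arrays at 8 h, coloured by log2 level minus the mean of the 7 arrays. Most upper rows are blue in knockdown and red in control arrays, with the deepest blue in knockdown replicate 4 and the deepest red in control replicate 2.

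The listed regulators above the effectors held 1 call, beside 1.26% of all probe sets called lower, and no test compared them with the effectors. Of 20 interferons, receptors and JAK-STAT factors only JAK2, a receptor-bound tyrosine kinase, was called (-0.53 ± 0.14, adjusted p = 0.0307), and that call was lost without knockdown replicates 3 or 4 or any 1 control array, with adjusted p-values up to 0.159. STAT4 was not counted among the 20. It was called lower as well (-0.57 ± 0.13, adjusted p = 0.0141), although its groups overlapped. IRF1 averaged 8.51 ± 0.46 in knockdown and 8.99 ± 0.17 in control cells (adjusted p = 0.173), and IRF7 averaged 7.64 ± 0.37 in knockdown and 8.15 ± 0.41 in control cells (adjusted p = 0.108). Both overlapped between groups. IRF9, a DNA-binding interferon regulatory factor, differed by -0.24 ± 0.14 (adjusted p = 0.428). Among 15 nucleic acid sensors limma called none, with 3 at an unadjusted p below 0.05. The RNA sensors IFIH1 (-0.54 ± 0.16, adjusted p = 0.0521) and RIGI (-0.34 ± 0.12, adjusted p = 0.151) had the values nearest to a call in that group. IFIH1 was called without knockdown replicate 1 (-0.66). TLR3 differed by 0.09 ± 0.13. RSAD2, STAT2 and IFNB1 were not among the measured genes with 1 symbol and were not analysed here. CXCL11, the other measured chemokine of the interferon type, averaged 5.37 ± 0.21 in knockdown and 5.78 ± 0.27 in control cells and was not called (adjusted p = 0.317).

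The sequences upstream of 5 of the lower genes, chosen after their values were seen, are shown because they hold the letters searched for interferon and NF-kB factors. They are the 250 bases before the RefSeq start of each gene (GRCh38.p14), written from 5′ to 3′ on the strand of the gene. Capitals mark matches on either strand to the core of the interferon-stimulated response element, searched as GAAA, any 2 letters and GAAA, or to a core of NF-kB sites, searched as GGGA, any 4 letters and CC. No match of one overlapped a match of the other in these 5 stretches. IFIT1 lies on the plus strand (chr10:89392373-89392622) and holds a pair of interferon cores on the minus strand, IFI44L on the plus strand (chr1:78620198-78620447) a pair on the plus strand, and CXCL10 on the minus strand (chr4:76023498-76023747) 1 interferon core ahead of 2 stretches that match the NF-kB core, one of them on both strands. CCL20 on the plus strand (chr2:227813592-227813841) holds 3 NF-kB matches and ICAM1 on the plus strand (chr19:10270870-10271119) 1 match.
IFIT1: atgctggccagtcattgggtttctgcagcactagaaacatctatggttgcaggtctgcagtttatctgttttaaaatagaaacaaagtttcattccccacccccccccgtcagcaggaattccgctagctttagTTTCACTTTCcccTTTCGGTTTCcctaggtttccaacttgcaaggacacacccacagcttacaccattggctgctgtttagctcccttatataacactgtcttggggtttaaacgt
IFI44L: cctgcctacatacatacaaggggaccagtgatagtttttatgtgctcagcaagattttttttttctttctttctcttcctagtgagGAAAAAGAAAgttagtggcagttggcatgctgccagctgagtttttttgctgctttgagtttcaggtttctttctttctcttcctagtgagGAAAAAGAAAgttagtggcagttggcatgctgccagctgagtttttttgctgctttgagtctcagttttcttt
CXCL10: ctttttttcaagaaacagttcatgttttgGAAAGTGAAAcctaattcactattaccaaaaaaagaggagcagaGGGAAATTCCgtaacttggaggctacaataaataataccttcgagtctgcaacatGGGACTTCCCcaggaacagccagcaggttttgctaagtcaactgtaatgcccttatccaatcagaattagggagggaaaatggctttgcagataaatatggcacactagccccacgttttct
CCL20: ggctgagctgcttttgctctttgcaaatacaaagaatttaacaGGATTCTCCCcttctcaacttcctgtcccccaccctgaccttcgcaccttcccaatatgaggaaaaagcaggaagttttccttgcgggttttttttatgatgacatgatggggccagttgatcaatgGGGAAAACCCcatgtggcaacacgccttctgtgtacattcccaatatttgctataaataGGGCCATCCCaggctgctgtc
ICAM1: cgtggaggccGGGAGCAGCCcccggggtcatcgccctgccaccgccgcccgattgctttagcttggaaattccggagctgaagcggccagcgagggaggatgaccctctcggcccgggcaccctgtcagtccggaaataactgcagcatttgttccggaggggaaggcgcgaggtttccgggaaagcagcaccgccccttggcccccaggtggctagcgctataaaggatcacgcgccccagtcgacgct
Over windows of 300 bases (250 before and 50 after a start), the interferon core was found in 3.57% and the NF-kB core in 25.6% of all 35116 windows. Counted by gene, the interferon core was held by 24 of the 34 measured effectors that had a window (70.6%), and by 3.65% of 9534 measured genes with a window. Among genes called lower, 14 of 143 with a window held it (9.79%), and with the effectors left out 7 of 133 (5.26%). Among genes called higher, 2 of 156 held it (1.28%). The NF-kB core was held by 42.7% of the genes called lower, 42.9% of those called higher and 38.2% of measured genes. A match is a stretch of letters and does not show that a factor binds there, and a site spelled otherwise stays unmarked.

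Enzymes that break down tryptophan moved in opposite directions. IDO1, the interferon-inducible dioxygenase that starts the kynurenine pathway, was at 6.19, 6.32, 5.79 and 5.69 in knockdown cells, against 7.48, 6.95 and 7.47 in control cells. It had the largest drop after ORMDL3 (-1.30 ± 0.26, adjusted p = 0.00446), and the call held without any 1 array. TDO2, the dioxygenase best known from liver, was at 7.65, 7.65, 7.0 and 7.49 in knockdown cells, against 6.78, 6.47 and 6.96 in control cells. Knockdown replicate 3 lay just above the highest control array, and the difference of 0.71 ± 0.18 (adjusted p = 0.024) lost its call without control replicates 1 or 2 or knockdown replicates 1, 2 or 4 (adjusted p up to 0.135).

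In the pathway that ORMDL3 restrains, ORMDL3 was the only call among 13 genes of sphingolipid synthesis. All 13 differences were negative, with a median of -0.16 against -0.025 over all probe sets. SPTLC1, a core subunit of serine palmitoyltransferase, averaged 9.06 ± 0.01 in knockdown and 9.24 ± 0.13 in control cells (adjusted p = 0.365). SPTLC2, its catalytic partner, averaged 8.47 ± 0.19 in knockdown and 8.59 ± 0.07 in control cells (adjusted p = 0.53). The ceramide synthase CERS5 differed by -0.42 ± 0.27 and the desaturase DEGS1 by -0.32 ± 0.18. Neither was called.

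Genes of sphingolipid turnover held 4 calls among 25, 3 lower and 1 higher, beside 1.26% of all probe sets called lower and 1.62% called higher. SGPP1, a phosphatase of sphingosine 1-phosphate in the endoplasmic reticulum, was at 8.25, 8.34, 8.13 and 8.02 in knockdown cells, against 8.76, 8.78 and 8.77 in control cells. The control arrays lay within 0.02 of each other, and the difference was -0.58 ± 0.09 (adjusted p = 0.000342). SGPP2, the inducible phosphatase of the same kind, was at 8.22, 8.34, 7.99 and 7.75 in knockdown cells, against 8.76, 8.93 and 8.79 in control cells. The difference was -0.75 ± 0.16 (adjusted p = 0.00852), with an adjusted p of 0.0516 without knockdown replicate 4. ACER2, a Golgi ceramidase, was lower too (-0.50 ± 0.11, adjusted p = 0.0105), and lost its call without control replicate 2 or knockdown replicate 4 (0.0516 and 0.0634). SMPD1, the acid sphingomyelinase of lysosomes, was at 8.59, 8.39, 8.21 and 8.64 in knockdown cells, against 7.66, 8.00 and 8.03 in control cells. It was higher by 0.56 ± 0.10 (adjusted p = 0.00197), and its call and that of SGPP1 held without any 1 array.

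Genes outside these pathways were among the lowest. ACAT1, the mitochondrial acetoacetyl-CoA thiolase, was at 8.11, 8.12, 7.94 and 8.00 in knockdown cells, against 9.18, 9.11 and 9.20 in control cells. The difference was -1.12 ± 0.15 (adjusted p = 4.45e-05). DIPK2A, a kinase-like protein of the secretory pathway, was at 7.54, 7.76, 7.51 and 7.69 in knockdown cells, against 8.68, 8.53 and 8.72 in control cells. The difference was -1.02 ± 0.09 (adjusted p = 1.31e-08). NCR3LG1, the tumour ligand of an activating receptor of natural killer cells, was lower by the fit (-0.95 ± 0.13, adjusted p = 5.39e-05). The stress gene NUPR1 averaged 7.42 ± 0.13 in knockdown and 8.19 ± 0.08 in control cells (-0.77 ± 0.11, adjusted p = 4.56e-05). TP53INP1, a p53 target that promotes autophagy and cell death, averaged 8.45 ± 0.16 in knockdown and 9.02 ± 0.04 in control cells (-0.58 ± 0.10, adjusted p = 0.00136). The calls of ACAT1, DIPK2A, NCR3LG1, NUPR1 and TP53INP1 held without any 1 array.

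Stress programmes as groups showed scattered calls, again beside 1.26% of all probe sets called lower and 1.62% called higher. Of 30 genes of the ATF4 and amino acid response, NUPR1, CHAC1 (-0.49 ± 0.13) and GDF15 (-0.36 ± 0.09) were lower and TRIB3 was higher (0.42 ± 0.08). The last 3 had adjusted p-values of 0.0313, 0.0254 and 0.00424, and each lost its call without at least 1 array, with values up to 0.118, 0.106 and 0.051. Of 22 NRF2 targets, HMOX1, the haem oxygenase (-0.33 ± 0.09, adjusted p = 0.0488), and GCLC, the catalytic subunit for glutathione synthesis (-0.28 ± 0.06, adjusted p = 0.0125), were lower. HMOX1 lost its call without any 1 of 5 arrays, reaching 0.271 without control replicate 2, and GCLC without control replicate 3 (0.147). None of 27 genes of the unfolded protein response was called by limma (6 at an unadjusted p below 0.05), and the chaperone HSPA5 averaged 12.63 ± 0.04 in knockdown and 12.61 ± 0.04 in control cells. Likewise, no gene was called among 22 genes of mitosis, 28 of DNA replication, 21 of glycolysis, 23 of oxidative phosphorylation, 16 of calcium stores, 19 immediate-early factors, 7 of MHC class I presentation and 20 neighbours of ORMDL3 on chromosome 17, with 14 of these 156 at an unadjusted p below 0.05. That count of 0 depended on the fit. The glycolysis genes SLC2A3 (0.45), ALDOC (0.46) and ENO2 (0.28) and the calcium-binding gene CALB2 (0.79) were called higher with the replicate number as a fixed or random block, with array weights, with quantile normalization and with array medians subtracted. SLC2A3, ALDOC and CALB2 were called without knockdown replicate 3 too, and the immediate-early genes FOS and FOSB with the fixed block.

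Other groups held 1 or 2 calls, beside 1.62% of all probe sets called higher and 1.26% called lower. HPGD, which inactivates prostaglandins, was higher (0.37 ± 0.08, adjusted p = 0.0105), the 1 call among 10 prostaglandin and leukotriene genes. The growth factor feedback inhibitor SPRY2 was higher (0.38 ± 0.10, adjusted p = 0.0316), the 1 call among 12 MAP kinase feedback genes. The gelatinase MMP9 was higher (0.48 ± 0.12, adjusted p = 0.0227), the 1 call among 16 matrix proteases and inhibitors. Of 21 p53 targets GADD45A was higher (0.38 ± 0.11, adjusted p = 0.0448) and TP53INP1, given above, was lower. HPGD, SPRY2, MMP9 and GADD45A each lost the call without some arrays, with adjusted p-values up to 0.0633, 0.125, 0.112 and 0.235.

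Among the higher genes were an integrin chain and a keratin. ITGB4, the integrin chain of hemidesmosomes, was at 10.44, 10.41, 10.62 and 10.65 in knockdown cells, against 9.45, 9.75 and 9.48 in control cells. It had the largest rise of all calls, 0.97 ± 0.15 (adjusted p = 0.000304). KRT19, a keratin of simple epithelium, was at 9.30, 9.34, 9.18 and 9.33 in knockdown cells, against 8.55, 8.75 and 8.53 in control cells. The difference was 0.68 ± 0.10 (adjusted p = 7.9e-05). Of 24 integrins, laminins and collagens 5 were higher and 1 was lower, with a median of 0.15, beside 1.62% of all probe sets called higher. The higher ones included the fibrillar collagen chain COL5A1 (0.58 ± 0.11), the matrix glycoprotein SPARC (0.68 ± 0.16), ITGA2 (0.39 ± 0.07) and ITGA3 (0.39 ± 0.10), and the lower one was ITGB8 (-0.41 ± 0.11), which activates latent TGF-beta. Leaving out control replicate 2, control replicate 3 or knockdown replicate 4 left 3 higher calls, and the call of ITGB8 was lost without control replicates 1 or 2 or knockdown replicates 1, 3 or 4 (adjusted p up to 0.208).

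Targets of the growth regulator YAP held 4 higher and no lower calls among 21, with a median of 0.10, beside 1.62% of all probe sets called higher. The count was 2 without control replicate 1, control replicate 3 or knockdown replicate 4. AXL, a receptor tyrosine kinase, was at 11.16, 11.12, 11.15 and 11.41 in knockdown cells, against 10.42, 10.37 and 10.47 in control cells. Both groups were tight, apart from knockdown replicate 4, and the difference was 0.79 ± 0.15 (adjusted p = 0.00216). NT5E, the ectoenzyme that makes adenosine, averaged 9.84 ± 0.12 in knockdown and 9.28 ± 0.02 in control cells (0.56 ± 0.09, adjusted p = 0.00065). ANKRD1 (0.64 ± 0.15, adjusted p = 0.0176) and RBMS3 (0.45 ± 0.13, adjusted p = 0.0438) lost their calls without some arrays, with adjusted p-values up to 0.103 without control replicate 1 and up to 0.167 without control replicate 2.

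**Figure D4:**
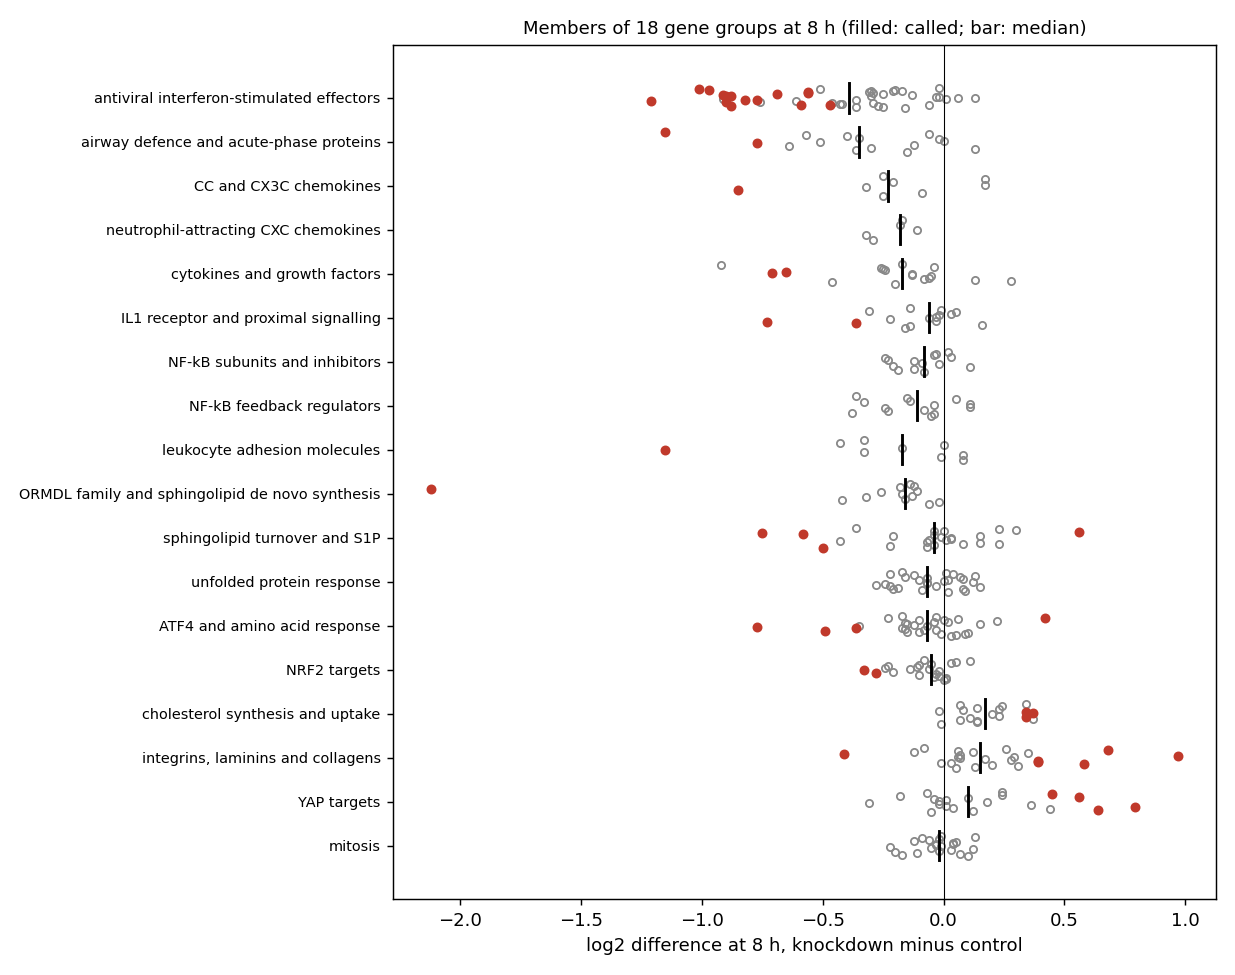
Each point is 1 gene of 18 gene groups (rows), placed by its log2 difference at 8 h (knockdown minus control) on the x axis, filled if called, with a bar at the median of the group. The antiviral effectors lie mostly left of 0 with 15 filled points, and the integrins, laminins and collagens have 5 filled points to the right and 1 to the left.

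Other large increases were found in genes of varied function. GABRA5, a subunit of the GABA-A receptor, was at 10.83, 10.62, 10.72 and 10.79 in knockdown cells, against 9.96, 9.93 and 10.06 in control cells. The difference was 0.76 ± 0.09 (adjusted p = 2.61e-06). KCNMA1, the pore of a calcium-activated potassium channel (0.78 ± 0.16, adjusted p = 0.0063), NAV1, a microtubule-associated neuron navigator (0.82 ± 0.15, adjusted p = 0.00202), and KIRREL3, an immunoglobulin-type adhesion molecule (0.77 ± 0.14, adjusted p = 0.00178), were higher as well. CPM, a membrane carboxypeptidase (0.75 ± 0.14, adjusted p = 0.00226), and GXYLT2, a xylosyltransferase that modifies Notch (0.75 ± 0.16, adjusted p = 0.00722), were also higher. These 6 genes, like ITGB4, KRT19, AXL, NT5E and COL5A1, kept their calls without any 1 array. The increases of KIAA1549L (0.87), NAV2 (0.86), SPOCK1 (0.80), TSPAN18 (0.77), PODXL (0.76) and SLIT3 (0.71) were called, but each lost its call without control replicate 3, with adjusted p-values of 0.0754, 0.186, 0.113, 0.108, 0.109 and 0.0533. The first 5 lost it without knockdown replicate 4 too, with adjusted p-values of 0.0681, 0.121, 0.131, 0.0905 and 0.114. KIAA1549L, NAV2 and SPOCK1 also lost it without control replicate 2 (0.0635, 0.0717 and 0.109), PODXL without control replicate 1 (0.103) and SPOCK1 without knockdown replicate 1 (0.0504).

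Few of the listed lipid genes other than sphingolipid genes were called. Of 18 genes of cholesterol synthesis and uptake 3 were higher, beside 1.62% of all probe sets, and none was lower, with a median of 0.17 and with all knockdown arrays above all control arrays for 8, against 6.16% of all probe sets. INSIG1, the sterol-responsive anchor of SREBP processing, lay between 10.96 and 11.05 in knockdown cells, against 10.73, 10.63 and 10.64 in control cells. The difference was small and tight, 0.34 ± 0.07 (adjusted p = 0.00464). The mevalonate pathway enzymes MVD (0.37 ± 0.09, adjusted p = 0.0252) and MVK (0.34 ± 0.10, adjusted p = 0.0488) were the other calls, and MVK lost its call without each of the 7 arrays (up to 0.199) and MVD without control replicates 1 or 3 or knockdown replicates 1 or 4 (up to 0.143). The count of 3 became 1 without control replicate 1, control replicate 3, knockdown replicate 1 or knockdown replicate 4. HMGCS1 averaged 11.33 ± 0.13 in knockdown and 10.96 ± 0.03 in control cells and was not called (adjusted p = 0.131). Of 22 genes of fatty acid and glycerolipid synthesis, with a median of 0.07, 1 was higher and 1 was lower. ACSS2, which makes acetyl-CoA from acetate, was higher (0.47 ± 0.09, adjusted p = 0.00397) and ELOVL7, a fatty acid elongase, was lower (-0.29 ± 0.08, adjusted p = 0.0328). ELOVL7 lost its call without control replicates 1 or 2 or knockdown replicate 1 (0.242, 0.0697 and 0.11). ELOVL2, of the same family, was not counted among the 22 and was called lower too (-0.35 ± 0.08, adjusted p = 0.0169).

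Whether these differences belonged to 8 h was tested in the same fit. Against the mean difference of the other 4 hours, 1 probe set was called, 0.0069% of those tested, and it was ICAM1. Its difference at 8 h was lower than that mean by -0.77 ± 0.13 (adjusted p = 0.0158). The call was lost without control replicates 1, 2 or 3 at 8 h (adjusted p = 0.0665, 0.176 and 0.0725) or knockdown replicates 3 or 4 at 8 h (0.0738 and 0.135). The ICAM1 difference was -0.15 at 0 h, -0.04 at 2 h, -0.32 at 4 h, -1.15 at 8 h and -0.98 at 10 h. Against 10 h alone and against 4 h alone limma called no probe set, with 706 and 427 at an unadjusted p below 0.05. For the antiviral effectors the median difference was 0.06 at 0 h, 0.04 at 2 h, -0.03 at 4 h, -0.39 at 8 h and -0.20 at 10 h. IFIT1 differed by 0.03 at 0 h, -0.18 at 2 h, -0.09 at 4 h, -1.21 at 8 h and -0.42 at 10 h, and its 8 h difference was not called against the mean of the other hours (-1.05, adjusted p = 0.508).

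Against 0 h, 33 probe sets were called (0.228%), 31 with a lower and 2 with a higher difference at 8 h. ICAM1 gained 3.86 from 0 to 8 h in knockdown cells, against 4.85 in control cells (a difference of -0.99 ± 0.16, adjusted p = 0.00343). TNFAIP6 gained 3.56 in knockdown cells, against 4.76 in control cells (-1.19 ± 0.24, adjusted p = 0.0183). Neither was called at 0 h, where their knockdown differences were -0.15 ± 0.12 and 0.05 ± 0.17. Other genes among the 33 differed at 0 h. TNFRSF9, a costimulatory receptor, was higher by 1.44 ± 0.12 in knockdown cells at 0 h and differed by 0.15 ± 0.12 at 8 h, so that its gain was 3.29 in knockdown and 4.58 in control cells. Of the 33, 20 were called at 0 h and 12 at 8 h, with 1 called at both and 2 at neither. The antiviral effector PARP9 (-1.0) and the sensor IFIH1 (-0.98) were among the lower ones. MINDY1, a deubiquitinase (0.64), and EPB41L1, a membrane skeleton protein (0.52), were the 2 higher ones. Small nucleolar RNA probe sets had mean levels between 7.37 and 7.55 in knockdown arrays and between 6.87 and 7.31 in control arrays at 0 h, and with that mean as a covariate 12 probe sets were called. The count was 12 without knockdown replicate 1 at 0 h, 14 without control replicate 2 at 0 h, 19 without control replicate 3 or knockdown replicate 4 at 0 h or control replicate 1 at 8 h, and 20 without control replicate 3 or knockdown replicate 3 at 8 h.

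**Figure D5:**
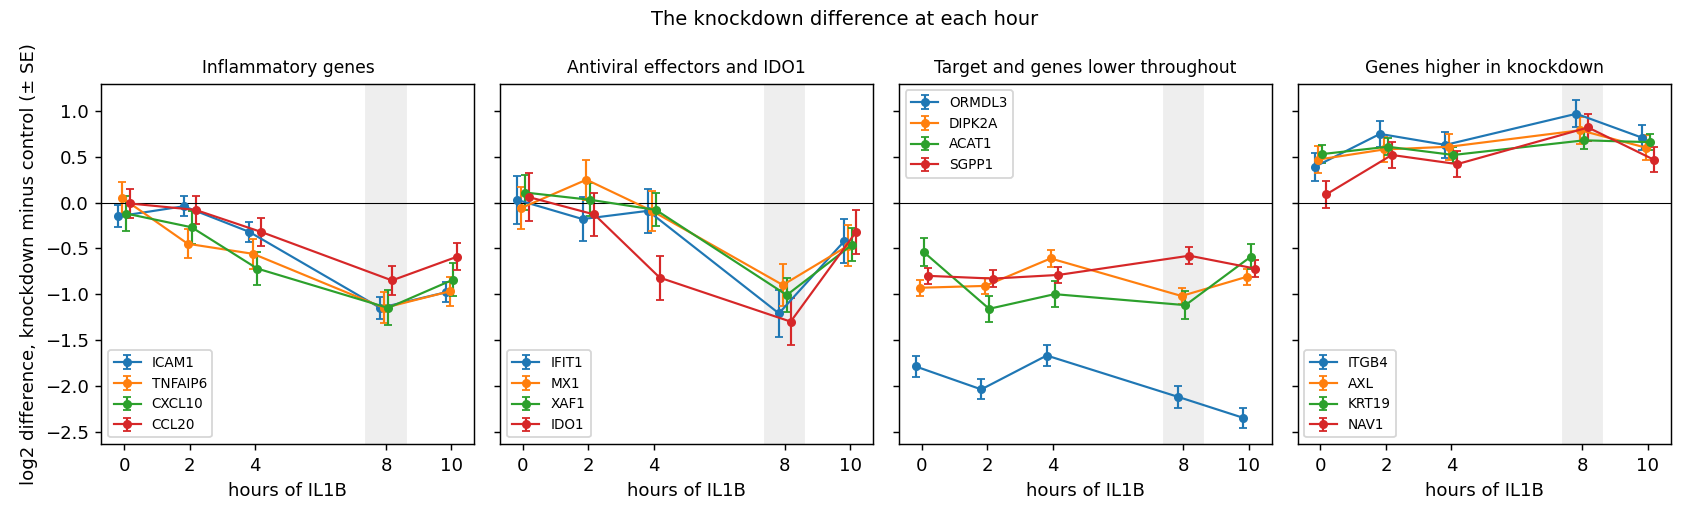
The 4 panels show the log2 difference (knockdown minus control, with the standard error of the fit) at 0, 2, 4, 8 and 10 h of IL1B on the x axis for 16 genes, with 8 h shaded. ICAM1 goes to -1.15 and IFIT1 to -1.21 at 8 h after values near 0 at 0 h, whereas ORMDL3, DIPK2A, ACAT1 and SGPP1 lie below 0 and ITGB4, AXL and KRT19 above 0 at every hour.

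Most 8 h calls had the same sign at other hours, which rest on other arrays but share the estimate of the spread. Of the 234 higher calls at 8 h, 224 were positive at 10 h and 74 were called higher there, 31.6% of the 8 h calls and 46.8% of the 158 higher calls at 10 h. Of the 183 lower calls, 178 were negative at 10 h and 61 were called lower there, 33.3% of the 8 h calls and 35.5% of the 172 lower calls at 10 h. Called at all 5 hours in 1 direction were 53 probe sets, 30 higher and 23 lower. Another 159 were called at 8 h and at no other hour (91 higher and 68 lower), which does not show that their difference was larger at 8 h. DIPK2A differed by -0.93 at 0 h, -0.91 at 2 h, -0.61 at 4 h, -1.02 at 8 h and -0.81 at 10 h. SGPP1 differed by -0.80 at 0 h, -0.83 at 2 h, -0.79 at 4 h, -0.58 at 8 h and -0.72 at 10 h. ITGB4 differed by 0.39 at 0 h, 0.75 at 2 h, 0.63 at 4 h, 0.97 at 8 h and 0.71 at 10 h.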

How the data were processed

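Expression was measured on Affymetrix arrays in 38 samples of A549 cells, 19 per arm. The authors deposited log2 expression levels for 14488 probe sets. The submitters' processing notes list RMA, Affymetrix Power Tools, limma 3.22.7 and build hg19. The series record states limma with a false discovery rate below 0.05 over the whole series, and no role is given for the others. No source used here states how the authors selected the probe sets. Groups and replicate numbers came from the sample titles. No further normalization was applied, and no detection values were used. The platform annotation gave 12132 probe sets 1 symbol, 628 several and 1728 none. A gene with several probe sets is given by the one with the highest mean. Probe sets with several symbols or none entered no gene list.

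Group means of the 10 combinations of arm and hour were fitted to all 38 arrays with limma 3.58.1 in R 4.3.3, with empirical Bayes moderation and no trend. Benjamini-Hochberg adjustment ran over all probe sets within each of 5 contrasts. The fit was also run on simulated data, drawn as independent arrays from its own group means and variances. That run therefore says nothing on whether the calls in the real arrays are right. Members and gene lists were chosen with earlier results of these data known, and lists got no test. Named genes were ORMDL1 to ORMDL3, the 16 highest and 16 lowest calls at 8 h whose groups did not overlap, the leading calls of the other contrasts, the leading members of each list and a fixed set. Promoter sequences are from RefSeq. The number of arrays limits the precision. Alternatives were the arrays in the fit, the replicate block, the variance model, array weights, normalization, dim probe sets, the small nucleolar RNA level and each array left out.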

Additional observations from a re-analysis of the deposited data

Results flagged for a closer look

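In the knockdown group at 8 h, 1 of the 4 arrays stood apart from the other 3 for 8 of 195 genes examined, where chance gives about 1 in 20 groups. The count of 8 is not above that share. AXL was 11.41 in replicate 4. IFIH1 was 6.80 in replicate 1. NUPR1 was 7.23 in replicate 2. ACTA2 was 9.01 in replicate 4. NFKBIE was 7.20, TNIP3 was 6.23, SLC2A3 was 8.08 and TLR3 was 6.95 in replicate 3. Without the array concerned, AXL and NUPR1 were still called, and IFIH1 (-0.66) and SLC2A3 (0.61), which limma did not call with all arrays, were called. The other 4 were called neither way. The array left out was chosen by its value, so these fits are no independent test.

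The knockdown difference at 8 h differed from that at 0 h, by the contrast within the limma fit, for 14 genes named here. It was lower at 8 h for TNFRSF9 (-1.29), TNFAIP6 (-1.19), SYCP2L (-1.13), SNORD38A (-1.12), PARP9 (-1.0), ICAM1 (-0.99), IFIH1 (-0.98), TRPA1 (-0.92), TNIP3 (-0.74), ZC3H12C (-0.68), NFKBIE (-0.60) and TNFAIP3 (-0.57), and higher for MINDY1 (0.64) and EPB41L1 (0.52). ICAM1 also differed from the mean of the other 4 hours (-0.77).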

How the results depend on the processing

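No named gene called at 8 h changed sign under the alternatives run, but lower calls outnumbered higher ones without knockdown replicates 2 or 4 and without the arrays numbered 4. Of the 156 alternative values of the counts and of ORMDL3, 125 stayed within 1.5 times or kept the call and 31 moved. Most of those that stayed belong to contrasts with a count of 0 or 1 or to ORMDL3. The tally therefore does not measure how stable the counts of 417 and 33 are. The 417 calls at 8 h became 46 with only the arrays of that hour (45 of them among the 417, the other being MALAT1), 456 with quantile normalization, 502 with array medians subtracted, 331 without dim probe sets and 330 after adjusting for small nucleolar RNA level, and 170 to 342 without 1 array. Same-numbered arrays did not deviate together at 8 h (correlations of -0.0760, -0.217 and -0.0303), and the main fit did not take the numbers as pairs. Arrays numbered 4, which have no control at 8 h, correlated at 0.394, 0.198, 0.576 and 0.221 at 0, 2, 4 and 10 h. Those numbered 1 to 3 correlated between -0.118 and 0.252 at these hours, most of them positively. The random block had a correlation of 0.14, so a shared effect of the replicate number is not excluded. With the replicate number as a block 625 (fixed) or 608 (random) were called, 22 or 21 of them effectors called lower (15 without the block), and 1 (ORMDL3) with the fixed block in the 7 arrays alone, chosen after seeing the data. The 33 calls of 8 h against 0 h became 0 in the limma fit of those hours alone (1498 at an unadjusted p below 0.05), 70 and 64 with the fixed and random replicate block, 240 with array weights, 14 with quantile normalization or medians subtracted, 12 after that adjustment, 20 without the arrays numbered 4, and 12 to 44 without 1 array. The single call against the mean of the other hours ranged from 0 to 1 without 1 array. Against 4 h the count of 0 became 1 with either replicate block or that adjustment and 2 with the robust variance trend or without dim probe sets, and stayed 0 without any 1 array, as did the count against 10 h. Of the 75 named genes called at 8 h, 30 stayed called without any 1 array and 21 in the 7 arrays alone, and 37 lost the call without knockdown replicate 4 and 33 without control replicate 2. With 4 and 3 arrays a group, the number of arrays limits what can be called.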
